A study of Bos taurus with 9 samples.

Results

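The genes described here were moderately higher in bovine endometrial cells given lysophosphatidic acid (LPA) with interferon tau (IFNt) than in cells given LPA or buffer. Their symbols lie outside a set of gene names that the rule left out. A probe set, the group of probes that reads 1 transcript on the array, was a member if it carried a single gene symbol, if the mean of its LPA+IFNt arrays lay 0.8 to 2.0 log2 units above both the control mean and the LPA mean, and if its 3 LPA+IFNt arrays all lay above the 6 others. Symbols starting with TRIM, IRF, PSM, TAP, IL, PARP, IFI, SLC, UBE2, USP, ERAP, BOLA or IGFBP, and the genes B2M, CFLAR, CD40, FAS and XAF1, were left out. This chose 96 of 24016 probe sets, which read 83 of the 9155 genes named on the array. Because the rule used both LPA+IFNt differences, these differences are given as descriptions with no test, and LPA against control is the comparison of the members that was tested.

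Interferon tau, a type I interferon secreted by the ruminant conceptus, tells the uterus that an embryo is present. It binds the receptor chains IFNAR1 and IFNAR2, whose kinases JAK1 and TYK2 pass the signal to STAT2, which acts with IRF9 to switch on interferon-stimulated genes in the nucleus. Many of those genes encode antiviral proteins, while others encode enzymes, membrane traffic proteins and secreted factors. LPA, a phospholipid made in the bovine endometrium, signals to cells through receptors coupled to G proteins.

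The samples were stromal and epithelial cells from the endometrium of 9 Holstein/Polish Black and White cows slaughtered early in the oestrous cycle (days 2 to 5), seeded together at 3 stromal cells to 1 epithelial cell. Control cells were given phosphate-buffered saline, LPA cells 1e-06 M LPA, and LPA+IFNt cells the same LPA with 1000 antiviral units of interferon tau, for which the labels state no volume, all for 6 h. Each group had 3 arrays, and each array held amplified RNA from a pool of 3 cows, so that the 9 pools share cows and p-values measure only the spread between these pools. Cells given interferon tau alone were not analysed here, so every LPA+IFNt value below comes from cells that also received LPA.

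Array medians lay between 4.29 and 4.37, and no pair of arrays held the same values. All 11 epithelial markers measured and all 12 stromal markers lay above 2.80 in control, the highest value of the trp spike-in probe sets, which target a bacterial transcript and serve here as the background level. Summed over the epithelial markers, the log2 values were 119.5 to 121.0 in control, 119.8 to 120.8 with LPA and 120.1 to 121.4 with LPA+IFNt. The stromal sum was 129.9 to 131.4 in control, 131.5 to 133.6 with LPA and 128.0 to 128.5 with LPA+IFNt. With LPA+IFNt limma called 3 stromal markers lower than control and 5 lower than LPA, beside 2.86% and 3.98% of all probe sets. COL1A1 (-0.39 over control), COL3A1 (-0.51) and FBN1 (-0.39) were lower than both, and COL1A2 and THY1 than LPA only. The stromal markers not called against control ran from -0.47 (HOXA10) to 0.06 (PDGFRA) over control. Among epithelial markers limma called CDH1 higher than control (0.21, adjusted p = 0.0112) and SPINT2 lower than LPA (-0.45, adjusted p = 0.00457). In such mixed samples fewer cells of a type and less RNA per cell cannot be told apart, and the part of the marker shifts in the values of the members was not tested.

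Control levels of the members ranged from 1.67 to 12.74 log2 units with a median of 7.73 (levels of different probe sets also depend on their probes), and their LPA+IFNt levels from 2.96 to 14.00 with a median of 8.84. In control, 43 members lay above 8, or 44.8% of them, against 28.0% of all probe sets tested. The median difference of LPA+IFNt was 1.11 over control, a 2.15-fold higher signal, and 1.13 over LPA, a 2.2-fold higher signal, beside medians of 0.018 and 0.019 over all probe sets. Both differences share the LPA+IFNt arrays, so they are not independent of each other. At least 1 log2 unit separated LPA+IFNt from both groups in 60 members, and at least 1.5 in 13. Complete separation of the 3 LPA+IFNt arrays above the other 6, which the rule demands, was met by 5.0% of all probe sets tested, and by 0.737% together with both bounds. The distance from the lowest LPA+IFNt array to the highest other array ran from 0.05 for C2 to 1.67 for RAB8B, with a median of 0.76.

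**Figure D1:**
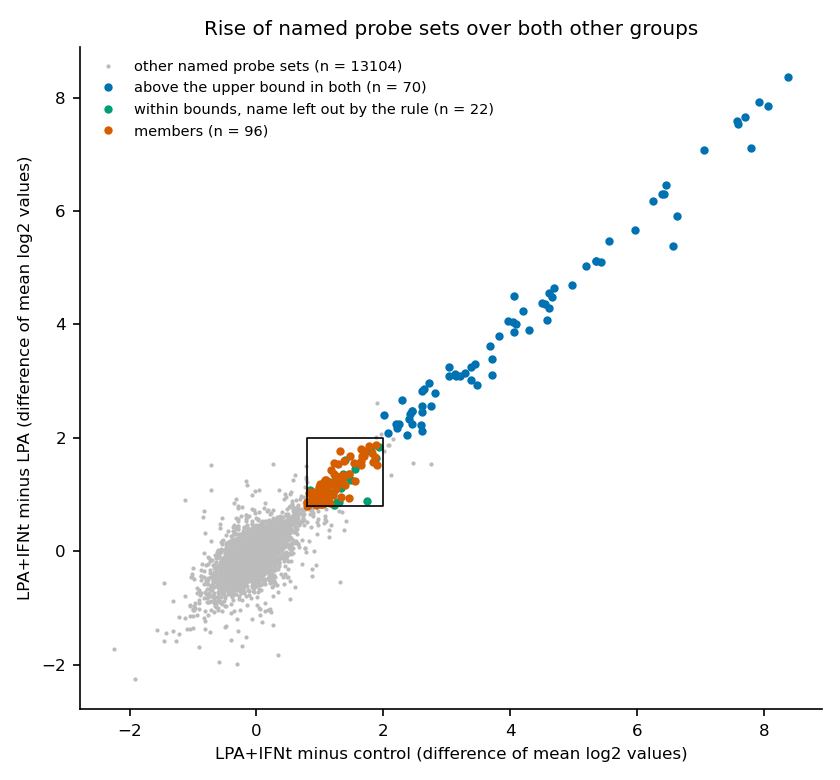
Each point is 1 probe set with a single gene symbol, with the LPA+IFNt minus control difference of mean log2 values on the horizontal axis and the LPA+IFNt minus LPA difference on the vertical axis. The square marks the bounds of 0.8 and 2.0, the 96 members lie inside it, and the 70 probe sets above 2.0 in both differences reach far beyond it. The axes share the LPA+IFNt arrays.

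Nearest to the lower bound on the inside were MOCOS (0.80 over control and 0.86 over LPA), ZNFX1 (0.80 and 0.80) and a TLR3 probe set (0.94 and 0.81). Just outside it were TENT4A (0.84 over control and 0.798 over LPA), TMC4 (1.03 and 0.797) and MR1 (0.797 and 1.23). At the upper bound, ATXN3 (1.91 and 1.51), LGALS3BP (1.89 and 1.88) and NUPR1 (1.86 and 1.65) lay inside, and TMEM106A (2.02 and 1.77), a second probe set of LOC282255 (2.07 and 1.87) and a second probe set of RAB8B (2.09 and 1.86) lay outside. The bounds therefore pass through genes: LOC282255 and RAB8B each have 1 probe set on either side. Names left out by the rule account for 22 further probe sets of 19 genes within the bounds, and 59 more have no single symbol.

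The 83 genes were sorted by hand into groups of known function after their values had been seen, so the groups order the description and are not evidence of anything. Below, a pair of values in parentheses gives LPA+IFNt minus control, then LPA+IFNt minus LPA, in log2 units of group means.

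**Figure D2:**
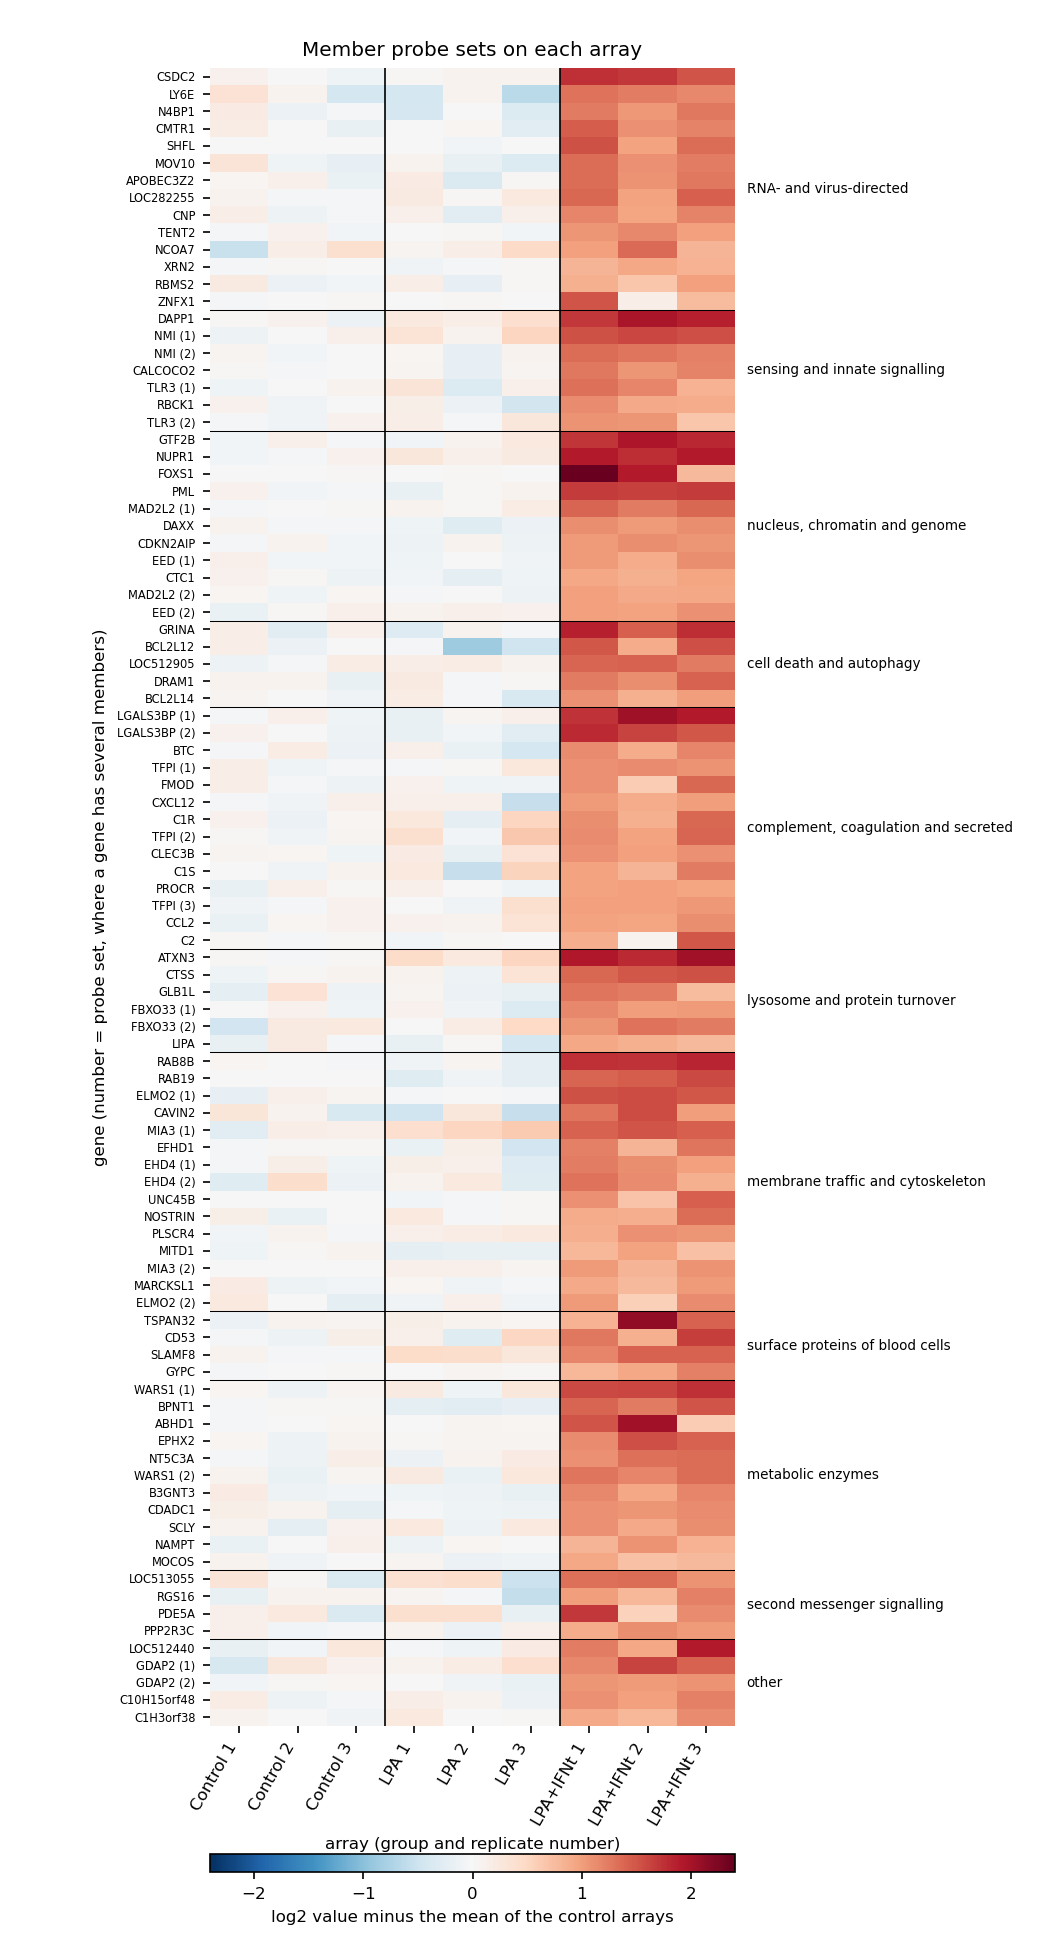
Rows are the 96 member probe sets grouped by known function, columns are the 9 arrays, and colour gives the log2 value minus the mean of the 3 control arrays, from blue (lower) to red (higher). All LPA+IFNt columns are red by the choice of members, with pale cells for C2 and ZNFX1 on LPA+IFNt replicate 2 and for FOXS1 and ABHD1 on replicate 3, while the LPA columns are mostly pale.

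RNA-directed and virus-directed proteins formed the largest group, with 14 genes. CSDC2, an RNA-binding protein with a cold-shock domain, had values of 3.88, 3.78 and 3.67 in control, 3.80, 3.86 and 3.86 with LPA and 5.54, 5.47 and 5.29 with LPA+IFNt. SHFL, an inhibitor of viral protein synthesis by programmed frameshifting, had 3.45, 3.45 and 3.46 in control, 3.44, 3.38 and 3.44 with LPA and 4.97, 4.42 and 4.79 with LPA+IFNt. The control and LPA arrays of SHFL were close together, and its LPA+IFNt replicate 2 was the lowest of that group. MOV10, an RNA helicase that restricts retroelements, had 8.71, 8.31 and 8.21 in control, 8.50, 8.24 and 8.08 with LPA and 9.75, 9.51 and 9.63 with LPA+IFNt, so its control and LPA arrays overlapped. APOBEC3Z2, a cytidine deaminase that acts on viral DNA, had (1.23, 1.28) and CMTR1, which methylates the cap of messenger RNA, had (1.25, 1.33).

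LOC282255, for which RefSeq gives the synonym IFITM3, the gene of a membrane protein that hinders viral entry, is a member only because the annotation gives it a LOC symbol, since IFI names were left out. It had 12.82, 12.70 and 12.71 in control, 12.95, 12.77 and 12.97 with LPA and 14.11, 13.71 and 14.18 with LPA+IFNt. LY6E, a surface protein anchored by a lipid that also affects viral entry, had 8.03, 7.78 and 7.27 in control, 7.27, 7.78 and 7.04 with LPA and 9.00, 8.91 and 8.85 with LPA+IFNt. Its spread was wide in control (SD 0.39, n = 3) and LPA (SD 0.38) and narrow in LPA+IFNt (SD 0.08). N4BP1, an RNA-degrading inhibitor of innate signalling, had (1.18, 1.42), CNP, a cyclic nucleotide phosphodiesterase, had (1.10, 1.11), and TENT2, which lengthens poly(A) tails, had (1.07, 1.09).

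XRN2, the exonuclease that ends transcription by RNA polymerase II, had the smallest standard error of a member (0.04) at (0.86, 0.90). Its values were 11.85, 11.92 and 11.90 in control, 11.80, 11.85 and 11.91 with LPA and 12.71, 12.81 and 12.72 with LPA+IFNt. NCOA7, which slows the entry of viruses through endosomes, had (1.05, 0.83) with a control SD of 0.48, the widest control spread of any member. A brighter NCOA7 probe set had (0.61, 0.50), below the rule's lower bound. The RNA-binding protein RBMS2 had (0.83, 0.83). ZNFX1, a helicase that senses viral RNA at mitochondria, had 2.14, 2.17 and 2.19 in control, 2.15, 2.18 and 2.16 with LPA and 3.67, 2.31 and 2.91 with LPA+IFNt. Its 6 arrays without interferon tau were all below 2.80, and so was LPA+IFNt replicate 2, while a brighter ZNFX1 probe set stood outside the rule at (2.65, 2.86).

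Sensors and adaptors of innate signalling gave 5 genes. DAPP1, an adaptor that binds phosphoinositides, had 6.92, 6.99 and 6.75 in control, 7.12, 7.05 and 7.30 with LPA and 8.59, 8.84 and 8.76 with LPA+IFNt. Its LPA arrays all lay above its control arrays. NMI, which binds STAT proteins, had 2 member probe sets, the brighter at 11.02, 10.89 and 10.94 in control, 11.00, 10.75 and 11.03 with LPA and 12.29, 12.24 and 12.15 with LPA+IFNt. The other NMI probe set had (1.56, 1.25) against (1.28, 1.30) for the brighter one.

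TLR3, the endosomal receptor for double-stranded RNA, had 4.01, 4.11 and 4.20 in control, 4.41, 3.79 and 4.23 with LPA and 5.44, 5.28 and 4.94 with LPA+IFNt in its brighter member probe set. LPA replicate 2 was the lowest of all 9 arrays there. CALCOCO2, an autophagy receptor that marks bacteria for degradation, had (1.17, 1.19). RBCK1, a subunit of the linear ubiquitin assembly complex, had (0.98, 1.13).

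Proteins of the nucleus, chromatin and genome maintenance gave 9 genes. GTF2B, a general transcription factor that recruits RNA polymerase II, had 11.28, 11.46 and 11.30 in control, 11.28, 11.42 and 11.57 with LPA and 13.05, 13.28 and 13.15 with LPA+IFNt, a 3.52-fold higher signal than control. PML, the scaffold of PML nuclear bodies, had 5.26, 5.09 and 5.10 in control, 4.97, 5.17 and 5.24 with LPA and 6.83, 6.80 and 6.82 with LPA+IFNt, and its LPA+IFNt arrays were among the tightest (SD 0.02, n = 3). DAXX, a histone chaperone that resides in those bodies, had 7.63, 7.53 and 7.50 in control, 7.45, 7.26 and 7.41 with LPA and 8.67, 8.57 and 8.67 with LPA+IFNt. The LPA arrays of DAXX all lay below its control arrays, whereas those of PML and GTF2B overlapped control.

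NUPR1, a small stress-induced nuclear protein, had 8.95, 8.96 and 9.11 in control, 9.29, 9.13 and 9.23 with LPA and 10.91, 10.78 and 10.92 with LPA+IFNt. MAD2L2, which acts in DNA repair and the spindle checkpoint, had 2 member probe sets at (1.34, 1.24) and (0.95, 1.00). CDKN2AIP, a regulator of p53, had (1.06, 1.11) and CTC1, of a complex that maintains telomeres, had (0.91, 1.04). FOXS1, a forkhead transcription factor, had 1.66, 1.66 and 1.70 in control, 1.67, 1.69 and 1.68 with LPA and 4.05, 3.58 and 2.45 with LPA+IFNt. It had the largest LPA+IFNt spread of all members (SD 0.82, n = 3), and its LPA+IFNt replicate 3 lay below 2.80.

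EED, a core subunit of the Polycomb complex that methylates histone H3, met the rule with 2 probe sets at (1.01, 1.07) and (1.01, 0.91). The annotation gives EED 23 probe sets, where the median gene has 1. The other 21 ranged from -1.57 to 0.29 in LPA+IFNt minus control with a median of -0.08, and in none did the LPA+IFNt arrays all lie above the other 6. Which of these probe sets read EED could not be settled from the files, so the EED values are uncertain.

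Cell death and autophagy gave 5 genes. GRINA, of a family that protects cells from death induced at the endoplasmic reticulum, had 4.66, 4.23 and 4.62 in control, 4.19, 4.59 and 4.48 with LPA and 6.37, 5.94 and 6.27 with LPA+IFNt. BCL2L12, related to BCL2, had 5.48, 5.19 and 5.32 in control, 5.31, 4.48 and 4.85 with LPA and 6.82, 6.22 and 6.88 with LPA+IFNt. Replicate 2 was the lowest array of BCL2L12 in all 3 groups, and its LPA mean was lower than its control mean by 0.45, the largest negative LPA difference of any member (adjusted p = 0.726, limma with Benjamini-Hochberg adjustment). DRAM1, a lysosomal protein that promotes autophagy, had (1.25, 1.19), and BCL2L14, another BCL2 relative, had (0.98, 1.06). LOC512905, for which RefSeq gives the synonym APOL3, had (1.35, 1.21), but another of its probe sets, at 3.11 in control, had (0.03, 0.02). The remaining probe sets of LOC512905 and GRINA did not meet the rule and had no group mean above 2.80.

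**Figure D3:**
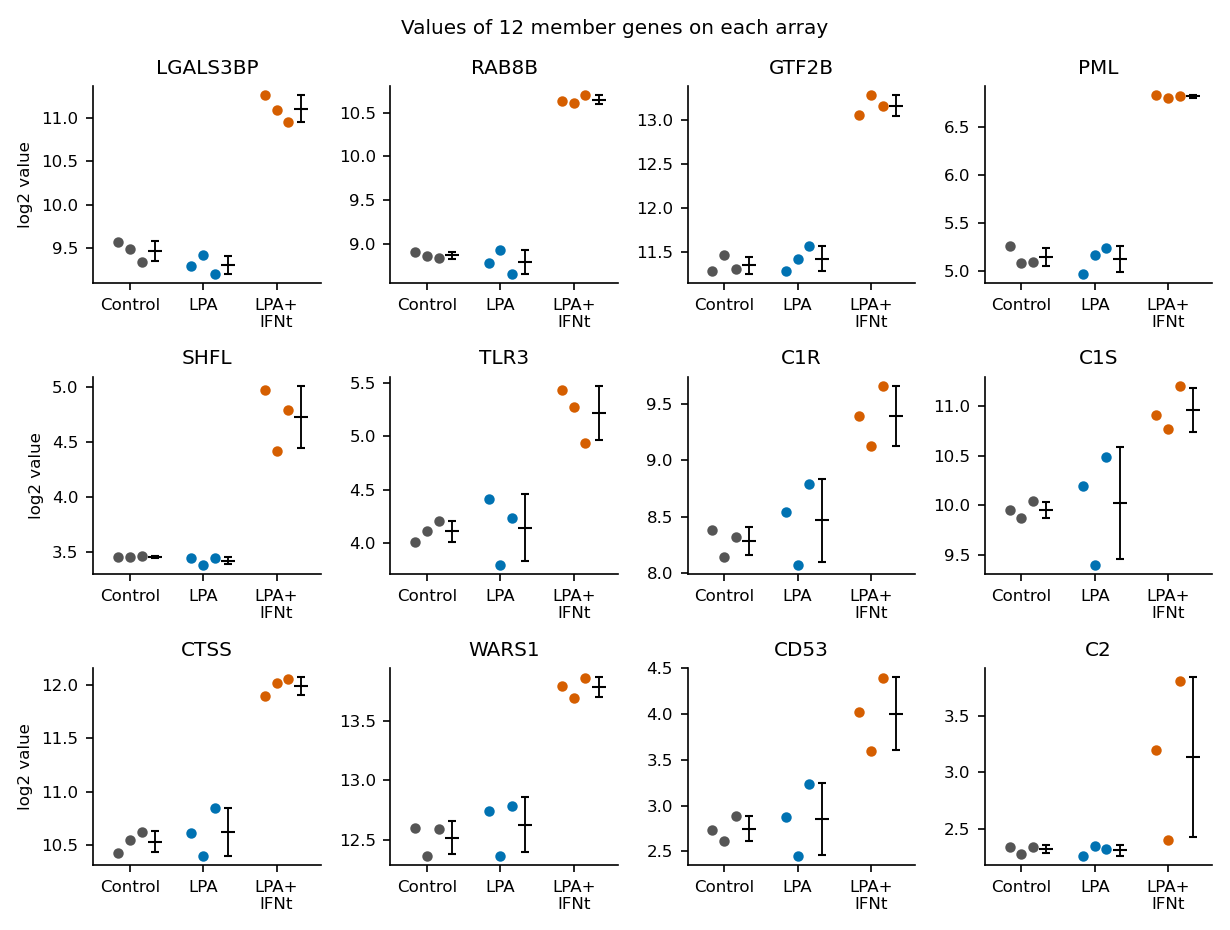
Log2 values of 12 member genes on each of the 9 arrays, with 3 arrays per group side by side in replicate order and the mean ± SD of the group as a bar beside them (n = 3). Where a gene has several member probe sets the brightest is shown, and vertical axes differ between panels and do not start at 0. PML and RAB8B have tight LPA+IFNt arrays, C1S has LPA arrays from 9.40 to 10.49, and C2 has LPA+IFNt arrays from 2.40 to 3.81.

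Complement, coagulation and other secreted or matrix proteins gave 11 genes. LGALS3BP, a secreted glycoprotein that binds galectins, had 9.57, 9.48 and 9.34 in control, 9.29, 9.41 and 9.20 with LPA and 11.27, 11.10 and 10.96 with LPA+IFNt in its brighter probe set. Its other probe set had (1.89, 1.88), the largest mean of the 2 differences among the members, with folds of 3.70 over control and 3.69 over LPA.

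The serine proteases C1R and C1S, which together start the classical complement pathway, were both members. C1R had 8.38, 8.14 and 8.32 in control, 8.54, 8.07 and 8.79 with LPA and 9.39, 9.13 and 9.66 with LPA+IFNt. C1S had 9.95, 9.87 and 10.04 in control, 10.19, 9.40 and 10.49 with LPA and 10.91, 10.77 and 11.20 with LPA+IFNt. In both genes replicate 2 was the lowest array of each group, and LPA replicate 2 widened the LPA group (SD 0.36 for C1R and 0.56 for C1S, the largest LPA spread of any member). Without LPA replicate 2 the difference over LPA was 0.62 for C1S, from 0.94, and 0.73 for C1R, from 0.93, which would leave both outside the rule. C2, the protease that C1S cleaves, had 2.34, 2.28 and 2.34 in control, 2.26, 2.35 and 2.32 with LPA and 3.20, 2.40 and 3.81 with LPA+IFNt, and LPA+IFNt replicate 2 was barely above the other 6 arrays. A brighter C2 probe set had (0.56, 0.54), below the rule's lower bound.

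TFPI, the inhibitor of the tissue factor pathway of coagulation, was the only gene with 3 member probe sets. The brightest had 9.52, 9.56 and 9.71 in control, 9.59, 9.52 and 9.98 with LPA and 10.58, 10.59 and 10.64 with LPA+IFNt, and the others had (1.10, 1.02) and (1.16, 0.84). PROCR, the endothelial receptor of protein C, had 8.95, 9.25 and 9.15 in control, 9.24, 9.13 and 9.01 with LPA and 10.09, 10.11 and 10.07 with LPA+IFNt. The LPA+IFNt arrays of PROCR and of the brightest TFPI probe set were close together, while their control and LPA arrays overlapped. The TFPI probe set at (1.16, 0.84) had a wider LPA+IFNt spread (SD 0.22, n = 3).

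CCL2, a chemokine that draws monocytes, had 10.33, 10.52 and 10.59 in control, 10.58, 10.56 and 10.80 with LPA and 11.45, 11.43 and 11.59 with LPA+IFNt. CXCL12, a chemokine of stromal cells, had 4.95, 4.90 and 5.12 in control, 5.12, 5.12 and 4.43 with LPA and 6.01, 5.89 and 6.00 with LPA+IFNt. LPA replicate 3 stood low for CXCL12, unlike the other LPA arrays. BTC, a ligand of the EGF receptor, had (1.07, 1.22), CLEC3B, which binds plasminogen, had (1.05, 0.93), and FMOD, a small proteoglycan that organises collagen fibrils, had (1.02, 1.06).

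Lysosome and protein turnover gave 5 genes. ATXN3, a deubiquitinating enzyme, had 6.98, 6.92 and 6.98 in control, 7.40, 7.20 and 7.47 with LPA and 8.88, 8.75 and 8.98 with LPA+IFNt. CTSS, a protease that trims the invariant chain of MHC class II, had 10.42, 10.55 and 10.62 in control, 10.61, 10.40 and 10.85 with LPA and 11.90, 12.02 and 12.06 with LPA+IFNt. In ATXN3 the 3 groups did not overlap at all, with LPA between control and LPA+IFNt, whereas in CTSS control and LPA overlapped. FBXO33, a substrate receptor of a ubiquitin ligase, had 2 member probe sets at (1.06, 1.16) and (1.20, 0.99). LIPA, the lysosomal acid lipase, had (0.85, 1.05) and GLB1L, related to beta-galactosidase, had (1.09, 1.18).

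Membrane traffic and the cytoskeleton gave 12 genes. RAB8B, a small GTPase of vesicle transport, had 8.91, 8.86 and 8.84 in control, 8.79, 8.93 and 8.66 with LPA and 10.63, 10.61 and 10.70 with LPA+IFNt, the widest separation of any member. RAB19, another such GTPase, had 4.94, 4.94 and 4.93 in control, 4.64, 4.84 and 4.70 with LPA and 6.32, 6.38 and 6.52 with LPA+IFNt, with LPA below control on every array. ELMO2, which helps to activate Rac in cell movement, had 2 member probe sets at (1.53, 1.56) and (0.90, 0.92). EHD4, a membrane-remodelling ATPase of endosomes, also had 2, which were close at (1.11, 1.12) and (1.10, 1.08).

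MIA3, which loads collagen for export from the endoplasmic reticulum, had 2 member probe sets that differed in their LPA values. The dimmer had 7.12, 7.54 and 7.51 in control, 7.80, 7.91 and 8.01 with LPA and 8.81, 8.89 and 8.82 with LPA+IFNt. The brighter had 11.62, 11.62 and 11.60 in control, 11.73, 11.73 and 11.68 with LPA and 12.63, 12.43 and 12.68 with LPA+IFNt. LPA lay above control on every array of both, by 0.52 in the dimmer and 0.10 in the brighter. Other MIA3 probe sets had LPA+IFNt minus control of 0.01, -0.28 and -1.32, so the probe sets of this gene disagree.

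CAVIN2, a coat protein of caveolae, had 7.07, 6.87 and 6.41 in control, 6.30, 7.05 and 6.22 with LPA and 8.06, 8.34 and 7.78 with LPA+IFNt, with wide spread in every group. The rest of the membrane group were PLSCR4, a phospholipid scramblase (1.01, 0.83), NOSTRIN, which carries nitric oxide synthase into vesicles (1.04, 0.96), MITD1, which acts at the end of cell division (0.82, 1.02), MARCKSL1, an actin regulator (0.91, 0.92), UNC45B, a myosin chaperone (1.07, 1.09), and EFHD1, a mitochondrial calcium-binding protein (1.10, 1.26).

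Surface proteins known from blood cells gave 4 genes. CD53, a leukocyte tetraspanin, had 2.73, 2.62 and 2.89 in control, 2.88, 2.45 and 3.24 with LPA and 4.02, 3.60 and 4.40 with LPA+IFNt. SLAMF8, a receptor of macrophages, had 6.54, 6.43 and 6.41 in control, 6.90, 6.88 and 6.73 with LPA and 7.63, 7.88 and 7.87 with LPA+IFNt, with LPA above control on every array. TSPAN32, a tetraspanin of blood cells, had 2.22, 2.44 and 2.43 in control, 2.50, 2.44 and 2.41 with LPA and 3.19, 4.48 and 3.78 with LPA+IFNt. GYPC, a red cell membrane glycoprotein, was higher by (0.98, 0.94).

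Beside these, 12 of 14 leukocyte markers were measured and 5 of them lay above 2.80 in control. The leukocyte sum was 41.5 to 43.3 in control, 42.7 to 45.4 with LPA and 42.9 to 44.4 with LPA+IFNt. This sum includes CD53 (1.26, 1.15), which the rule chose for being higher, so it says nothing of leukocyte markers in general. PTPRC, the pan-leukocyte phosphatase CD45, averaged 3.69 in control, 4.44 with LPA and 3.72 with LPA+IFNt, and CD3E, CD4, CD8A, ITGAM, TYROBP and CORO1A averaged below 2.80 in every group. The 11 leukocyte markers other than CD53 had LPA+IFNt minus control from -0.74 to 0.29 and LPA+IFNt minus LPA from -0.80 to 0.14. All 6 endothelial markers averaged below 2.80 in control, beside the values of PROCR, TFPI and NOSTRIN.

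Metabolic enzymes gave 10 genes. WARS1, the tryptophanyl-tRNA synthetase, had 12.60, 12.36 and 12.59 in control, 12.74, 12.36 and 12.78 with LPA and 13.80, 13.70 and 13.87 with LPA+IFNt in its brighter member probe set, and (1.65, 1.52) in the other. Replicate 2 was lowest in all 3 groups for the brighter one. BPNT1, a phosphatase of sulphate metabolism, had 9.98, 10.03 and 10.03 in control, 9.79, 9.76 and 9.81 with LPA and 11.40, 11.26 and 11.51 with LPA+IFNt, with LPA below control on every array. NT5C3A, a pyrimidine nucleotidase, had 8.34, 8.23 and 8.51 in control, 8.21, 8.44 and 8.55 with LPA and 9.45, 9.69 and 9.70 with LPA+IFNt.

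NAMPT, the rate-limiting enzyme of NAD salvage, had 9.34, 9.50 and 9.61 in control, 9.37, 9.54 and 9.50 with LPA and 10.30, 10.56 and 10.33 with LPA+IFNt. EPHX2, which hydrolyses fatty acid epoxides, had 2.31, 2.15 and 2.36 in control, 2.30, 2.34 and 2.33 with LPA and 3.41, 3.82 and 3.68 with LPA+IFNt. The control and LPA arrays of EPHX2 were all at background level. The remaining enzymes were B3GNT3, which extends glycans (1.08, 1.22), CDADC1, which holds a deaminase domain (1.10, 1.20), SCLY, which frees selenium from selenocysteine (1.04, 0.92), MOCOS, the molybdenum cofactor sulphurase (0.80, 0.86), and ABHD1, of the hydrolase fold (1.37, 1.34).

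Second messenger signalling gave 4 genes. PDE5A, which breaks down cyclic GMP, had 4.67, 4.78 and 4.21 in control, 4.94, 4.94 and 4.38 with LPA and 6.24, 5.10 and 5.68 with LPA+IFNt, and its lowest LPA+IFNt array was only 0.16 above the highest other array. LOC513055, for which RefSeq gives the synonym RGS2, had (1.24, 1.15) and RGS16 had (1.00, 1.18), and both names stand for proteins that end G protein signalling. PPP2R3C, a regulatory subunit of a protein phosphatase, had (1.00, 0.98). Outside these groups were GDAP2, with 2 member probe sets at (1.39, 1.17) and (1.06, 1.14), C10H15orf48 (1.09, 1.06), C1H3orf38 (0.94, 0.85) and LOC512440 (1.35, 1.33).

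Some members were at background in control. The control mean lay below 2.80 for 7, FOXS1, TSPAN32, ABHD1, EPHX2, CD53, C2 and ZNFX1. That is 7.29% of the members, against 37.7% of all probe sets tested. Measured from 2.80 instead of from their control mean, their LPA+IFNt means stood higher by 0.57 for FOXS1, 1.02 for TSPAN32, 0.65 for ABHD1, 0.84 for EPHX2, 1.21 for CD53, 0.34 for C2 and 0.17 for ZNFX1. The 7 members with an LPA+IFNt SD above 0.4 were FOXS1 (0.82), ABHD1 (0.72), C2 (0.71), ZNFX1 (0.68), TSPAN32 (0.65), PDE5A (0.57) and LOC512440 (0.49). So 5 of the 7 most variable were also at background in control. The median SD of all members was 0.11 in control, 0.14 with LPA and 0.13 with LPA+IFNt, beside 0.06, 0.07 and 0.06 over all probe sets.

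The members also varied with the replicate number. Replicate 2 was the lowest array in all 3 groups for 15 members, or 15.6%, against 5.34% of all probe sets tested and 18.6% of the 70 probe sets above the upper bound. These 15 were BCL2L12, CD53, C1S, C1R, NOSTRIN, TFPI, RBMS2, ATXN3, MOCOS, WARS1, MARCKSL1, CALCOCO2, CNP, LOC282255 and SCLY. Replicate 1 was lowest in all 3 groups for 8.33% of members against 23.9% of all probe sets, and replicate 3 for 6.25% against 6.27%. Replicates 1, 2 and 3 were highest in all 3 groups for 5.21%, 3.12% and 10.4% of members, against 8.7%, 5.44% and 3.77% of all probe sets. Within LPA+IFNt, replicate 3 was the highest array for 43 members, or 44.8%, against 25.7% of all probe sets and 52.9% of the 70 above the upper bound. Replicate 2 was the highest there for 25 members, or 26.0%, against 49.4% and 8.57%.

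The tested comparison asked whether LPA alone moved these genes. With limma and Benjamini-Hochberg adjustment over all 24016 probe sets, 0 of the 96 members passed the threshold of 0.05, where 0.0708% of all probe sets did, and the lowest adjusted p of a member was 0.169. At an unadjusted p under 0.05 there were 11 members, or 11.5%, against 8.3% of all probe sets, 7 of them higher and 4 lower with LPA. With the replicate number as a block, without variance moderation, or with limma's trend and robust settings, 0 members passed, and 16, 10 and 9 had an unadjusted p under 0.05. These were 16.7%, 10.4% and 9.38% of the members, against 12.9%, 6.15% and 7.74% of all probe sets in the same fits. The rule itself limits this comparison, because both LPA+IFNt differences must lie within bounds and so LPA and control cannot differ by more than 1.2.

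LPA minus control ranged from -0.45 to 0.52 over the members with a median of 0.002, equal to the median of 0.002 over all probe sets, and 48 members were above 0 and 48 below. It lay within 0.2 of 0 for 79 members, or 82.3%, against 86.1% of all probe sets. The standard errors ran from 0.04 to 0.35 and rest on the spread of all 3 groups, so that of FOXS1 (0.35) comes from its LPA+IFNt arrays (SD 0.82) more than from control (SD 0.02) or LPA (SD 0.01).

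The 3 LPA arrays lay wholly above the 3 control arrays for 7 members, where 5.13% of all probe sets did so, and wholly below for 5, against 4.91%. Those above were ATXN3, NUPR1, DAPP1, SLAMF8, PLSCR4 and both MIA3 probe sets, and those below were BPNT1, RAB19, SHFL, DAXX and MITD1. The smallest p-values were those of ATXN3 (0.39, adjusted p = 0.169), SLAMF8 (0.37, adjusted p = 0.202), the dimmer MIA3 probe set (0.52, adjusted p = 0.202), BPNT1 (-0.22, adjusted p = 0.311), NUPR1 (0.21, adjusted p = 0.42) and RAB19 (-0.20, adjusted p = 0.444), all from limma. Without LPA replicate 2, ATXN3 stood at 0.47 and passed (adjusted p = 0.049), while over all alternatives its adjusted p ran from 0.049 to 0.946. A p that misses the threshold does not show that LPA left a gene as it was.

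**Figure D4:**
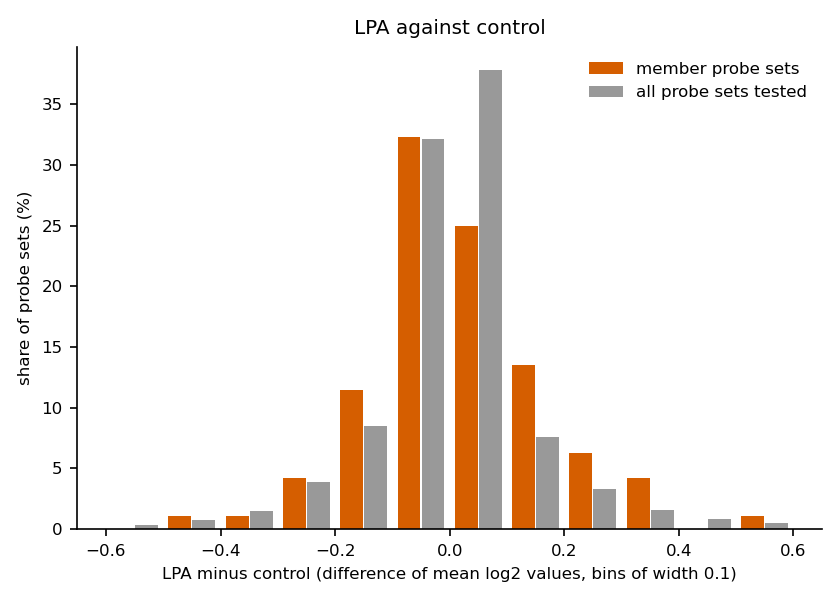
Share of probe sets, in percent, by LPA minus control difference of mean log2 values in bins of width 0.1, for the 96 members and for all 24016 probe sets tested, with values beyond 0.6 in either direction not drawn. Both distributions centre on 0, with medians of 0.002.

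Of the 83 genes, 32 have more than 1 named probe set. In 12 genes at least 2 probe sets met the rule: TFPI with 3, and LGALS3BP, NMI, MAD2L2, WARS1, GDAP2, MIA3, EHD4, TLR3, FBXO33, EED and ELMO2 with 2 each. Leaving out EED, 33 probe sets of 25 member genes did not meet it. Below both lower bounds were 23 of them, and 11 of these 23 had no group mean above 2.80. Another 7 had 1 difference outside the bounds, such as WARS1 (2.47, 1.56), and 3 were above both upper bounds, ABHD1 (4.04, 4.04), CDADC1 (2.59, 2.23) and ZNFX1 (2.65, 2.86). For these 3 genes the name "moderate" therefore depends on the probe set. Of the 22 probe sets with a group mean above 2.80, both differences were above 0 in 18, where 50.8% of all probe sets were. Both were below 0 in 3, which were MIA3 (-1.32, -0.88), MIA3 (-0.28, -0.27) and WARS1 (-0.31, -0.30). Both differences were also above 0 in all 11 probe sets with no group mean above 2.80, so the sign alone says little. Of the 21 EED probe sets left out here, 13 had both differences below 0.

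**Figure D5:**
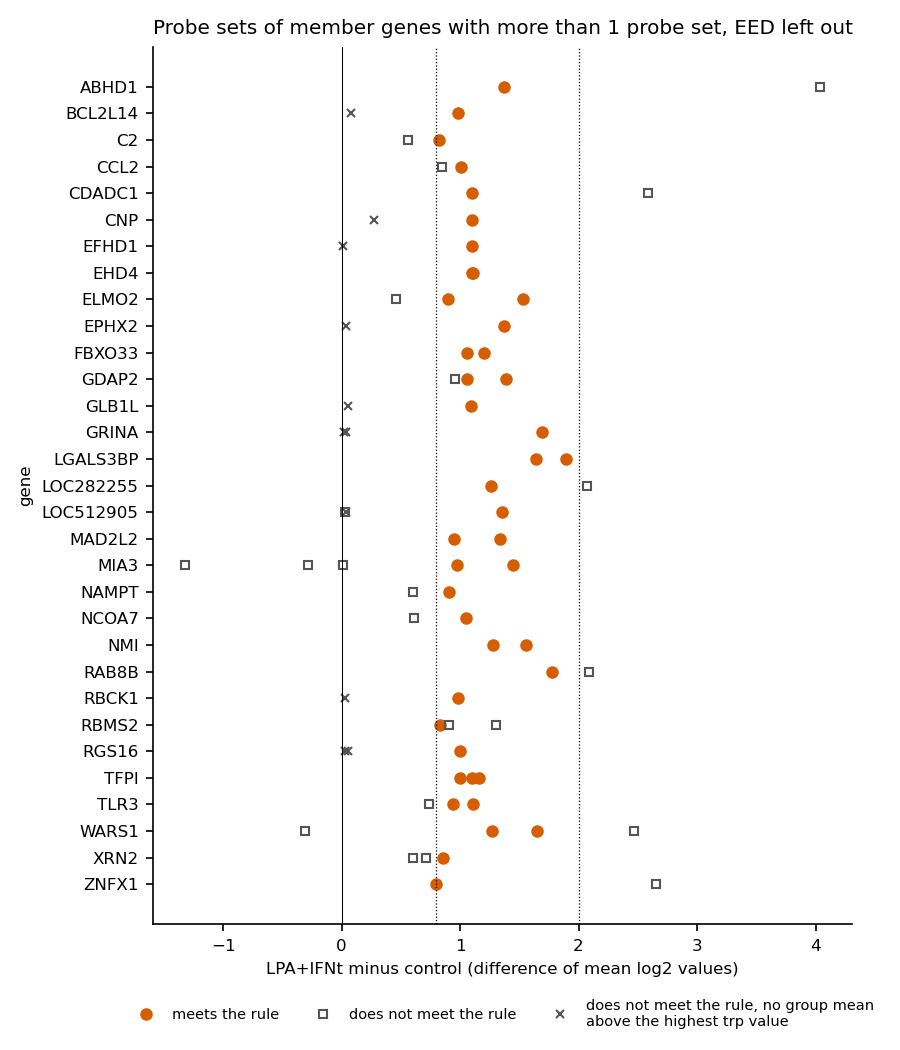
LPA+IFNt minus control, as a difference of mean log2 values, for every probe set of the 31 member genes with more than 1 probe set, EED left out. Filled circles meet the rule, squares do not, crosses do not and have no group mean above 2.80, and dotted lines mark 0.8 and 2.0. ABHD1, CDADC1 and ZNFX1 have a probe set far to the right of the upper bound, and MIA3 has 1 at -1.32.

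The pathway that carries the interferon signal was compared through a list of receptor, kinase, STAT and IRF genes and their inhibitors. It held 18 measured genes, of which NMI is a member, and its other 28 probe sets read 17 genes. With limma, 9 of the 28 were called higher with LPA+IFNt than control, where 2.48% of all probe sets were, and 9 were called higher than LPA, where 2.56% were. The median difference over the 28 was 0.10 over control and 0.06 over LPA, beside 0.018 and 0.019 over all probe sets. In both comparisons the 9 read only 5 of the 17 genes. These were USP18, which removes ISG15 and damps receptor signalling, and the transcription factors IRF9, STAT2, IRF7 and IRF3. Most of the 9 read USP18 or IRF7, so the probe sets are not separate genes. The list was written with earlier results of these data known. In limma's test 0 were lower in either comparison (2.86% and 3.98% of all probe sets were), with 1 against control and 3 against LPA at an unadjusted p under 0.05, and with the replicate block 1 (PTPN2) and 3 (PTPN2, JAK1 and IFNGR2) were called lower.

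USP18, IRF9, STAT2 and an IRF7 probe set lay above the members' range. USP18 rose from 3.32 ± 0.18 in control to 11.12 ± 0.16 with LPA+IFNt (SD, n = 3, limma adjusted p = 2.3e-07) in its most changed probe set. IRF9 was 6.23 ± 0.31 in control and 8.84 ± 0.22 with LPA+IFNt (limma adjusted p = 0.000179), and STAT2 was 6.05 ± 0.06 and 8.50 ± 0.20 (limma adjusted p = 9.02e-06). IRF7 rose by 2.01 over control (SE 0.32, limma adjusted p = 0.0103) and 2.40 over LPA in its most changed probe set. A brighter IRF7 probe set had (1.96, 2.07), and another, at background, had (0.05, 0.03). IRF3 rose by 0.87 over control (SE 0.07, limma adjusted p = 0.000286), inside the range of the members, although its symbol starts with IRF and it stood 0.71 above LPA. The receptor chains IFNAR1 (0.01, adjusted p = 0.971) and IFNAR2 (0.17, adjusted p = 0.56) and the kinase JAK1 (-0.15, adjusted p = 0.488) did not pass in limma's test against control.

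Of the 83 genes, 31 belong to at least 1 of 12 lists of gene functions, and the share of all named genes on these lists is not given here. The lists were written with earlier results of these data known. This overlap and the counts below are therefore descriptions and not independent evidence. Among RNA-directed and virus-directed effectors, which hold SHFL, MOV10, CNP and NCOA7, 16 of the other 23 probe sets were called higher than control, with a median of 3.68. Lists of membrane traffic, with RAB8B, EHD4, PLSCR4 and CALCOCO2, had 11 of 39 others called higher with a median of 0.18, and of complement and secreted defence, with LGALS3BP, C1R, C1S and C2, 6 of 39 higher and 1 lower with a median of 0.05. Of metabolism, with WARS1, NT5C3A, NAMPT and LIPA, 4 of 65 others were called higher and 1 lower, with a median of 0.05, and of nuclear bodies and transcription, with GTF2B, PML, DAXX and ZNFX1, 4 of 37 were higher and 1 lower, with a median of 0.00. In each case 2.48% of all probe sets were called higher than control and 2.86% lower, by limma. Against LPA these lists had, in the same order, 15, 9, 6, 4 and 4 higher and 0, 0, 0, 4 and 2 lower. Of all probe sets, 2.56% were higher than LPA and 3.98% lower. In the lists of sensing, guanylate-binding proteins and ubiquitin, 7 of 24, 7 of 17 and 6 of 34 others were higher than control. For cell death, cytokines and cell surface these were 3 of 21, 6 of 38 and 1 of 41. The ubiquitin list also had 3 lower.

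Genes next to a member in the RefSeq order of protein-coding genes (assembly ARS-UCD2.0) were looked up for their own values, a comparison chosen after the members were known. Of 79 measured neighbour genes, 3 that are not members had a probe set above the upper bound in both differences, as did 56 of all 9155 genes. They were RBM43 beside NMI (3.21 over control and 3.08 over LPA), APOBEC3Z1 beside APOBEC3Z2 (3.71 and 3.40), and PARM1 beside BTC (4.06 and 4.50). C1R and C1S, both members, neighbour each other.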

How the data were processed

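The deposited values were log2 expression values per probe set, made by the authors, whose processing notes name RMA and Partek, with versions and build not given in the sources used here. Base 2 was taken from RMA's usual output. RMA equalises array distributions, so a change shared by most transcripts would be hidden. Of 24128 probe sets, 112 controls were left out. Names came from the array's annotation and RefSeq: 13292 probe sets had 1 symbol, 86 several and 10638 none.

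Contrasts were fitted with limma 3.58.1 in R 4.3.3 (lmFit, eBayes, two-sided, no covariate, no filter on dim probe sets) on all 9 arrays, with Benjamini-Hochberg adjustment over 24016 probe sets and a threshold of 0.05. The code was tested on simulated data. The members, gene lists and marker lists were chosen with earlier results of these data known. Deviations from group means correlated by 0.19 to 0.491 in all 9 pairs of arrays with the same replicate number and by -0.468 to 0.141 otherwise. The numbers in the labels were therefore taken to pair samples, and the fit with the number as a block was run as an alternative. All p-values and calls come from the fit without the block, which ignores this pairing, unless the block is named. Calls of markers and of the lists other than the pathway list are given from that fit only.

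Named in full were, from each list, up to 4 members with the largest mean difference, the 10 largest of all, the 6 with the smallest p in LPA against control, the 3 on each side of each bound, genes with at least 2 member probe sets, and 4 called pathway genes. The other members were named by their role, and IRF3, IFNAR1, IFNAR2 and JAK1 after their values were seen. Member probe sets of a gene are described separately, while its probe sets that did not meet the rule are given mostly by count. The number of arrays limits the precision. Alternatives were each array left out, the replicate block, spike-in centring, other bounds, other variance settings, a filter on dim probe sets and averaged probe sets.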

Additional observations from a re-analysis of the deposited data

How the results depend on the processing

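The members' own differences ranged from 0.45 to 2.14 over 2102 comparisons with the alternatives, where the choice of members fixes their direction, and 5 moved by more than 1 SD, all under spike-in centring. The rule was met by 94 to 113 probe sets with 1 array left out, the most without LPA+IFNt replicate 2, and by 108 with spike-in centring, 91 without dim probe sets, 126 with bounds of 0.7 to 2.2 and 60 with bounds of 1.0 to 2.0. With the probe sets of a gene averaged it was met by 69 genes, 65 of them among the 83. Of the 96 members, 77 met it in all 10 settings that left out an array or centred on spike-ins, and without LPA replicate 2 the 9 lost were probe sets of C1R, C1S, CCL2, CLEC3B, NCOA7, RBMS2, SCLY, TFPI and TLR3. Members called in LPA against control numbered 0 to 1 with 1 array left out, the 1 being ATXN3 without LPA replicate 2, and 0 with the replicate block and under the other settings. The median LPA minus control over members, 0.002, was -0.008 to 0.013 with 1 array left out and -0.058 with spike-in centring, so its sign carries no weight. Pathway probe sets called higher numbered 9 in each comparison under all alternatives on single probe sets. Those called lower than control, 0 in the fit reported, were 1 with the replicate block and 0 to 1 with 1 array left out, the 1 without LPA replicate 1. Those called lower than LPA, also 0, were 3 with the replicate block and 0 to 2 with 1 array left out, the 2 without LPA replicate 2. The replicate block changed no other call given for members. The causes of these changes were not tested. Promoter motifs were not run, because no promoter sequences were used here.

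Signals near background limit the 7 members with a control mean below 2.80, whose differences depend on where background is set. UNC45B (control mean 3.36) and SHFL (3.45) lay not far above it with nearly identical control arrays, and whether they too were at background was not tested. With 3 arrays per group from pools that share cows, the errors describe these pools. LPA was present in every LPA+IFNt culture, and interferon tau on its own was not analysed here.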
